A study of Mus musculus with 6 samples.

Results

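The interferon-stimulated genes are the genes that cells switch on when interferon binds its receptor, and 42 of them were followed here in basal epidermal cells of mouse back skin. They were taken by gene symbol from a list of known interferon targets, all 42 were found among the 24972 entries of the deposited gene table, and 37 were abundant enough to be tested. Poly(A) RNA had been sequenced from flow-sorted cells of 3 control and 3 Piezo1 cKO samples. Every sample, controls included, had the genotype p63CreER; Piezo1fl/fl; R26-mTmG, in which a tamoxifen-activated Cre recombinase driven from the p63 gene of basal keratinocytes can delete floxed Piezo1, a mechanically gated cation channel, and switch the colour of a membrane reporter. Control mice received vehicle, whereas cKO mice were given 3 tamoxifen injections at 20 ug per dose between postnatal days 45 and 52. Tamoxifen exposure and Piezo1 deletion therefore cannot be told apart, and no label states that each sample was a separate animal, so every p-value rests on differences among these samples that may in part be technical.

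Interferons bind receptors that activate JAK kinases. In response to type I and type III interferon, a complex that contains STAT2 and IRF9 binds the interferon-stimulated response element of its target promoters. Interferon gamma acts mainly at a different element, the gamma-activated sequence. The induced proteins sense foreign RNA and DNA, block translation, degrade RNA, modify proteins with ISG15 or ADP-ribose and restrain pathogens, and in skin both keratinocytes and resident immune cells can make them.

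The promoters of a few of the genes are shown because the response element can be read in them. Each stretch below holds the 120 bases that end just before the RefSeq transcription start, written along the gene's own strand, and capitals mark matches on either strand to the core of the interferon-stimulated response element, taken as GAAA, any 2 bases and GAAA again, and neighbouring matches may overlap. The stretches lie on GRCm38.p6 at chr4:156200819-156200938 for Isg15 (minus strand), chr5:120907526-120907645 for Oas1a (minus), chr5:120777660-120777779 for Oas3 (minus), chr19:34640769-34640888 for Ifit1 (plus), chr8:61927967-61928086 for Ddx60 (plus), chr3:142620543-142620662 for Gbp2 (plus), chr11:58199436-58199555 for Igtp (plus) and chr11:88999283-88999402 for Trim25 (plus). Trim25 is shown as the tested gene whose fitted level was not higher in cKO.
Isg15: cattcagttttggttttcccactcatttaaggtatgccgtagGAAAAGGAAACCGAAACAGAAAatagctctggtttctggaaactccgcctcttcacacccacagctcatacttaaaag
Oas1a: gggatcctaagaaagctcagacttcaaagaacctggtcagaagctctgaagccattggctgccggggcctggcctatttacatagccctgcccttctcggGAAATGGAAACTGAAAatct
Oas3: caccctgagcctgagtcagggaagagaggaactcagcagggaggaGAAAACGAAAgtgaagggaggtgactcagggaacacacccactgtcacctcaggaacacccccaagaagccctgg
Ifit1: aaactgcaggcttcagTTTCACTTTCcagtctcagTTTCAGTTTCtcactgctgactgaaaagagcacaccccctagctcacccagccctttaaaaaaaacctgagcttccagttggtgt
Ddx60: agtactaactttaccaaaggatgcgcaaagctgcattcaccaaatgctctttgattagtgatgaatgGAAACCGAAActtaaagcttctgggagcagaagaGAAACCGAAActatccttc
Gbp2: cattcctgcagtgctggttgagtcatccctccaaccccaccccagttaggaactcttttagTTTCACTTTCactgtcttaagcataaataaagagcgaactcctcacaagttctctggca
Igtp: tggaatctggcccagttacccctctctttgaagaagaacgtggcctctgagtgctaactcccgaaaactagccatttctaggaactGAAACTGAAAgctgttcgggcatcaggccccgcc
Trim25: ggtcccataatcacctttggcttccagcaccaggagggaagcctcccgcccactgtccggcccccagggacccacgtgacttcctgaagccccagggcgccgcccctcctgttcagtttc

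Isg15 carried 3 overlapping matches, the farthest starting 78 bases before the start, and Oas1a carried 2 overlapping matches within 20 bases of it. Promoter windows (250 bases before to 50 after a start) were matched for 31 of the 42 genes, not for Oas1b, Oas2, Usp18, Dhx58, Zbp1, Parp9, Parp14, Mx1, Mx2, Rtp4 or Ifi27. The response element core was found in 16 of the 31 (51.6%) and in 1079 of all 27025 genes with a window (3.99%). TTCNNNGAA, the letters of the gamma-activated sequence, was found in 6 of the 31 (19.4%) and in 9.55% of all genes. In Bst2 a match to each motif overlapped. A match is a description of the letters in the window and not evidence of binding.

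Library facts bear on the values that follow. Approximate depth was 14.2 to 24.5 M reads in 5 libraries and 1.05 M reads in cKO replicate 1, where 1 read was worth 12.3 normalized counts and 3 reads came to 36.8, against 1.47 to 2.28 for 3 reads elsewhere. In cKO replicate 1, 15 of the 42 genes lay under 3 reads and 5 of these (Oas2, Oasl1, Ifit2, Mx1 and Zbp1) were listed at 0. The others under 3 reads there were Dhx58, Oas1b, Ifit1, Ifit3, Mx2, Rsad2, Samd9l, Gbp3, Ifi44 and Sp100. Piezo1 gave 806, 1098 and 1476 normalized counts in the controls and 380, 565 and 399 in the cKO libraries, always in the order of replicates 1, 2 and 3, with no overlap. The keratins Krt5 and Krt14, which define basal keratinocytes, were abundant in every library (Krt5 at 228148 to 266942). Xist, expressed from the inactive X chromosome of females, was at 13994, 7773 and 17829 in control replicate 1, cKO replicate 1 and cKO replicate 2 and at 2.85 or less in the others, so sex differed within both groups.

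None of the 37 tested genes passed an adjusted p of 0.05 (limma, Benjamini-Hochberg over 12239 genes, smallest adjusted p = 0.744 among them), and no gene of the whole table did (0.0%), nor with limma-voom on approximate reads (656 genes at an unadjusted p under 0.05). Their fitted levels nevertheless leaned one way, with 36 of 37 higher in cKO, where 47.1% of all tested genes were higher. The median log2 fold change of the 37, cKO minus control, was 0.96, beside -0.03 over all genes tested, and over all 42 without a filter it was 0.90. A log2 fold change of at least 1 was found for 18 of the 37, against 3.33% of all genes. Unadjusted, 5 genes had a p under 0.05, all higher (Oas1a, Ddx60, Dtx3l, Isg15 and Stat2), where 1.47% of all genes fell there as higher and 3.46% as lower (603 genes in both directions). At this unadjusted cut-off, dropping control replicate 1 gave 15 higher interferon-stimulated genes, beside 1029 of all genes in either direction. Dropping cKO replicate 2 gave 14 beside 1574, and dropping cKO replicate 1 gave 3 beside 563. With control replicate 2 removed there was 1 beside 220. Removal of control replicate 3 left 0 beside 169, and removal of cKO replicate 3 left 0 beside 434. In each case the whole-table count, which holds both directions, also moved from 603 in the same direction. Whether the size of these shifts was particular to the interferon-stimulated genes was not tested. All 3 cKO values lay above all 3 control values for 3 of the 37 (Oas1a, Ddx58 and Mx2), against 5.16% of all genes, and below them for 0 of the 37, against 5.7% of all genes. Since the genes were chosen with earlier results of these data known, the counts describe them and are no separate evidence of a direction.

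**Figure D1:**
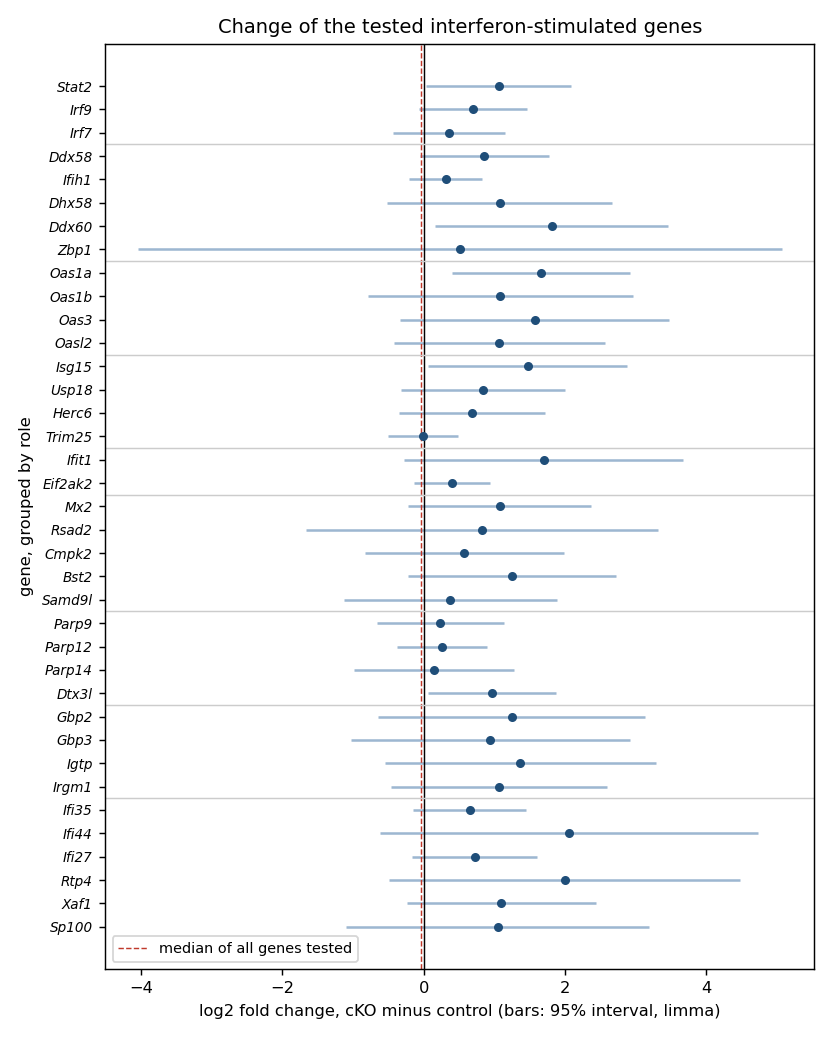
Log2 fold change (cKO minus control, x axis) of the 37 tested interferon-stimulated genes (y axis, grouped by role), with limma's 95% interval as bars and the median of all tested genes as a dashed line. Points lie right of 0 for every gene but Trim25, and the intervals of Oas1a, Ddx60, Dtx3l, Isg15 and Stat2 lie wholly above 0.

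The spread between samples of one group was wide for these genes. The median SD of the log2 values was 0.71 among controls and 0.77 among cKO libraries for the 37 genes, beside 0.23 and 0.42 for all genes tested. Set against each gene's control mean, the median of the 37 on the log2 scale was 0.72, -0.24 and -0.45 in control replicates 1, 2 and 3. In cKO replicates 1, 2 and 3 it was 0.87, 0.24 and 1.496. Control replicate 1 thus stood above cKO replicate 2 and near cKO replicate 1, and it passed cKO replicate 1 when libraries were rescaled to the same total (0.79 against 0.76).

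Gene by gene the same order of libraries recurred. Control replicate 1 was the highest control for 35 of the 37 genes, as it was for 37.7% of all tested genes. The exceptions were Ddx58 and Samd9l. cKO replicate 3 was the highest of all 6 libraries for 29 of the 37, against 14.5% of all genes. cKO replicate 2 was the lowest cKO library for 30 of the 37, against 32.2% of all genes, and it lay below control replicate 1 for 32 of the 37, against 50.3% of all genes. It still exceeded control replicate 2 for 30 and control replicate 3 for 33 of the 37, with a median log2 difference of 0.51 and 0.68. Control replicate 1 exceeded control replicate 2 for 36 and control replicate 3 for 35 of the 37, with a median log2 difference of 1.01 and 1.30.

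**Figure D2:**
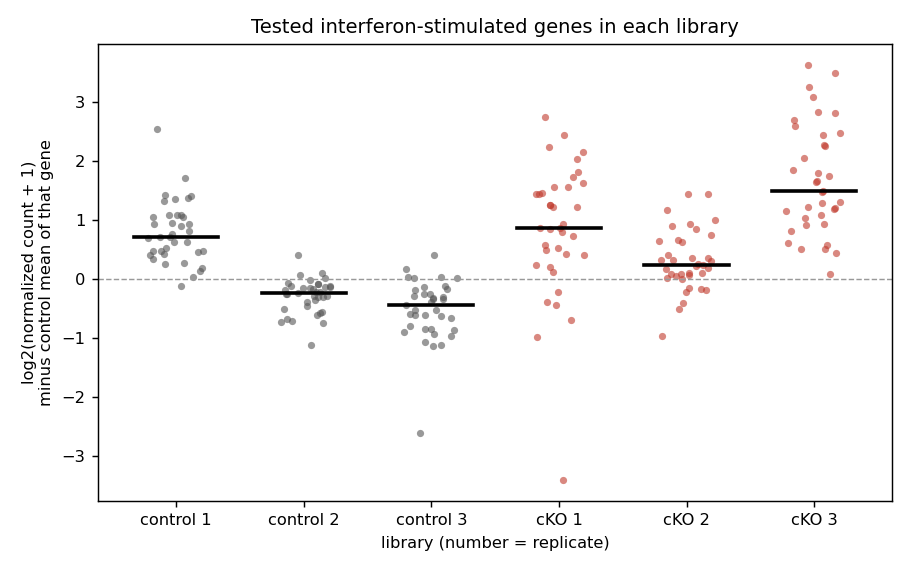
Log2(normalized count + 1) minus the control mean of the same gene (y axis) for the 37 tested interferon-stimulated genes in each library (x axis), with a bar at the median. The medians are 0.72, -0.24 and -0.45 in the controls and 0.87, 0.24 and 1.496 in the cKO libraries, so control replicate 1 sits among the cKO libraries.

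Among the transcription factors, Stat2, a signal transducer of the type I response, was counted at 449, 143 and 159 in the controls. In the cKO libraries the normalized counts were 509.5, 342 and 536. On the log2 scale cKO exceeded control by 1.06 (SE 0.44, 95% interval 0.03 to 2.09, adjusted p = 0.744 in limma), and the groups overlapped only through control replicate 1. Irf9, the DNA-binding subunit of the same complex, gave 539, 332 and 327 in controls and 704, 412 and 862 in cKO (0.70, SE 0.33). Irf7, which drives further interferon production, was level in the controls, at 119, 109.8 and 118, and stood at 133, 104 and 238 in cKO, so that cKO replicate 3 alone carried its log2 fold change of 0.36 (SE 0.34).

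Nucleic acid sensors were higher on average in cKO for 5 of 5. Ddx60, a helicase linked to RNA sensing, was at 58.2, 14.6 and 12.2 in controls and at 102, 40.3 and 124 in cKO, which is 1.82 higher on the log2 scale (SE 0.71, 95% interval 0.17 to 3.47). Its control replicate 1 exceeded cKO replicate 2. Ddx58, which encodes the RNA sensor RIG-I, was one of the genes with no overlap, at 91.2, 106 and 99.5 in controls and 143, 122 and 333 in cKO (0.86, SE 0.40). Control replicate 1 was the lowest control there, unlike in nearly all the other genes. Ifih1, which encodes the RNA sensor MDA5, was nearly flat at 395, 277 and 275 in controls and 369, 351 and 445 in cKO (0.31, SE 0.22). Dhx58, the regulator of both sensors, was at 8.44 to 27.9 in controls and 22.05 to 50.9 in cKO (1.08, SE 0.69). Zbp1, a sensor of left-handed nucleic acids that can trigger necroptosis, varied widely, with 60.8, 10.1 and 0.741 in controls and 0, 27.9 and 119 in cKO. The 0.741 in control replicate 3 and the 0 in the shallow cKO replicate 1 are under 3 reads, and the interval of its log2 fold change of 0.51 ran from -4.05 to 5.08.

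The oligoadenylate synthetases make the messenger that activates RNase L. They lie on chromosome 5, where Oas1a spans 120896256 to 120907521 of GRCm38 on the minus strand. Oas1a had the smallest unadjusted p of the 37 genes with 70.5, 34.4 and 20.0 normalized counts in controls and 124, 74.0 and 179 in cKO. The means were 41.6 ± 26.0 and 126 ± 52.6 (SD, n = 3 each), with a difference of 1.66 on the log2 scale (SE 0.54, 95% interval 0.40 to 2.92, adjusted p = 0.744 in limma). The groups did not overlap, but control replicate 1 came within a few counts of cKO replicate 2, and an exact two-sided permutation of 3 against 3 cannot go below 0.1. Oas3 was at 23.0, 7.79 and 13.8 in controls and 50.4, 14.3 and 104 in cKO (1.57, SE 0.82). Oasl2, an oligoadenylate synthetase-like protein and the most abundant of the family by normalized counts, was at 215, 59.99 and 79.3 in controls and 168, 116 and 495 in cKO (1.07, SE 0.64). In Oasl2 control replicate 1 exceeded both cKO replicate 1 and cKO replicate 2, and without cKO replicate 3 its log2 fold change was 0.46. Oas1b was at 4.23 to 18.5 in controls and 12.4 to 31.3 in cKO. Below the filter, Oasl1 was at 5.32 or less in every library, and Oas2 at 4.01 or less except for 31.5 in cKO replicate 3. Reads of close relatives such as Oas1a and Oas1b may have been divided between them in a way that is not known.

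Isg15 is the ubiquitin-like protein that is attached to other proteins during the response. It was at 51.9, 25.3 and 20.5 in controls and 127, 37.7 and 127 in cKO, or 1.47 higher on the log2 scale (SE 0.60, 95% interval 0.07 to 2.87, adjusted p = 0.744 in limma). Control replicate 1 exceeded cKO replicate 2, so the groups overlapped. Usp18, which removes ISG15 and damps receptor signalling, was at 382, 161 and 93.7 in controls and 418, 229.8 and 346 in cKO (0.84, SE 0.50). Herc6, the mouse ISG15 ligase, was at 35.1 to 89.5 in controls and 66.9 to 108 in cKO (0.69, SE 0.45). Trim25, a ubiquitin ligase that acts on RIG-I, was level at 662, 456 and 655 in controls and 501, 627 and 618 in cKO. Its log2 fold change of -0.01 (SE 0.21, 95% interval -0.50 to 0.49) turned positive under rescaling to totals, quantile normalization and limma-voom (0.04 to 0.16).

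Genes that block translation were low apart from Eif2ak2, the double-stranded RNA-activated kinase PKR, at 311, 233 and 234 in controls and 363, 276 and 395 in cKO (0.41, SE 0.23). Ifit1, which binds foreign RNA caps, was at 36.1, 8.03 and 8.54 in controls and 34.4, 23.7 and 125 in cKO (1.70, SE 0.85). In cKO replicate 1 that value rests on about 2.8 reads. Ifit2 and Ifit3, beside Ifit1 on chromosome 19, were below the filter. Ifit3 was at 3.54, 0 and 0.609 in controls and 11.9, 0.716 and 14.0 in cKO, the 11.9 being about 1 read, and Ifit2 was at 5.43 or less throughout.

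Among the antiviral effectors, Mx2, a dynamin-like GTPase, did not overlap between groups, at 29.6, 17.3 and 12.7 in controls and 36.6, 29.9 and 60.7 in cKO (1.08, SE 0.56). The margin was narrow, since control replicate 1 and cKO replicate 2 differed by less than 1 normalized count. The 36.6 in cKO replicate 1 rests on about 2.98 reads, just under 3. Bst2, tetherin, which holds budding virions at the membrane, was at 88.7, 56.9 and 50.4 in controls and 349, 55.6 and 179 in cKO (1.247, SE 0.63). Here cKO replicate 1 was the highest library and cKO replicate 2 lay within the controls. Rsad2 (viperin) and Cmpk2, neighbours on chromosome 12, were both weakly expressed, with Rsad2 at 4.50 to 9.13 in controls and 2.87 to 34.9 in cKO, and Cmpk2 at 16.0 to 58.9 and 35.9 to 88.9. Samd9l was at 27.5 to 59.1 in controls and 21.9 to 104 in cKO. The 34.9 of Rsad2 and the 21.9 of Samd9l, both in cKO replicate 1, are under 3 reads. Mx1 was below the filter, at 2.90 to 6.80 in controls and 0, 3.48 and 23.0 in cKO.

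The PARP group adds or reads ADP-ribose and was the role with the smallest median log2 fold change (0.25 over 4 genes). Dtx3l, a ubiquitin ligase that works as a pair with PARP9, was the exception at 325, 160.3 and 175 in controls and 567, 249.4 and 481 in cKO (0.96, SE 0.39, 95% interval 0.06 to 1.87). Its partner Parp9 gave 453, 263 and 255 in controls and 229, 366 and 593 in cKO (0.24, SE 0.39). The 2 genes parted in cKO replicate 1, where Dtx3l was at its highest and Parp9 at its lowest. They overlap on opposite strands of chromosome 16, and whether strand was used in counting is not given in the sources used here. Parp14 was at 793, 342 and 282 in controls and 263, 529.6 and 747 in cKO, so the highest value was a control, and its log2 fold change of 0.15 (SE 0.49) turned negative when control replicate 2 (-0.01), control replicate 3 (-0.15) or cKO replicate 3 (-0.19) was left out. Parp12 was at 239.9 to 433 in controls and 331 to 469.9 in cKO.

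The interferon-inducible GTPases guard against intracellular pathogens and respond most to interferon gamma. They showed the widest swing between libraries of all roles, with a median per library of 1.23, -0.26 and -0.98 in control replicates 1, 2 and 3 and 1.22, -0.20 and 2.59 in cKO replicates 1, 2 and 3. Gbp2, a guanylate-binding protein, was at 994, 308 and 171 in controls and 684, 389 and 2631 in cKO (1.245, SE 0.81). Igtp was at 288, 88.9 and 52.1 in controls and 329, 98.2 and 725 in cKO (1.37, SE 0.82). Irgm1 was at 424, 173 and 106 in controls and 587, 169.5 and 719.6 in cKO (1.06, SE 0.66). In all 3 genes control replicate 1 stood far above cKO replicate 2. Without cKO replicate 3 the log2 fold change was 0.46 for Gbp2, 0.70 for Igtp and 0.67 for Irgm1. Igtp overlaps Irgm2, a related gene on the same strand, and reads of the 2 may be mixed. Gbp3 was lower, at 10.7 to 17.3 in controls and 8.76 to 75.7 in cKO. Without these 4 genes the median log2 fold change of the remaining 33 tested was 0.86, and the per-library order was the same.

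Of the remaining genes, Ifi27 was the most abundant of the 42 both by normalized counts and per kilobase of exon, where its mean was 660.2 in controls and 1217 in cKO. It was at 1065, 955 and 886 normalized counts in controls and 3008, 974.5 and 1376 in cKO (0.72, SE 0.38), so its cKO mean was carried by cKO replicate 1. Ifi35 was also highest there, at 262, 169.8 and 147 in controls and 451, 221 and 255 in cKO (0.65, SE 0.34). Xaf1, a proapoptotic interferon target, was at 81.4, 33.2 and 21.1 in controls and 107, 50.03 and 111 in cKO (1.10, SE 0.58). The largest fitted changes of the tested genes belonged to weakly expressed ones, Ifi44 with 2.06 (SE 1.15) and Rtp4 with 1.997 (SE 1.07). Ifi44 averaged 5.41 in controls and passed the filter through its cKO values of 10.99 (about 0.9 reads), 10.9 and 40.7. Rtp4 was at 6.08 to 16.6 in controls and 71.4, 7.15 and 133 in cKO, so cKO replicate 2 lay within the controls. Sp100, a nuclear body protein, was at 10.97 to 57.2 in controls and 15.5 to 131 in cKO. Per kilobase of exon, Gbp2 followed Ifi27 with a mean over 6 libraries of 343 normalized counts, then Ifi35 with 145 and Bst2 with 144, and Ifit2 was the lowest at 0.616.

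**Figure D3:**
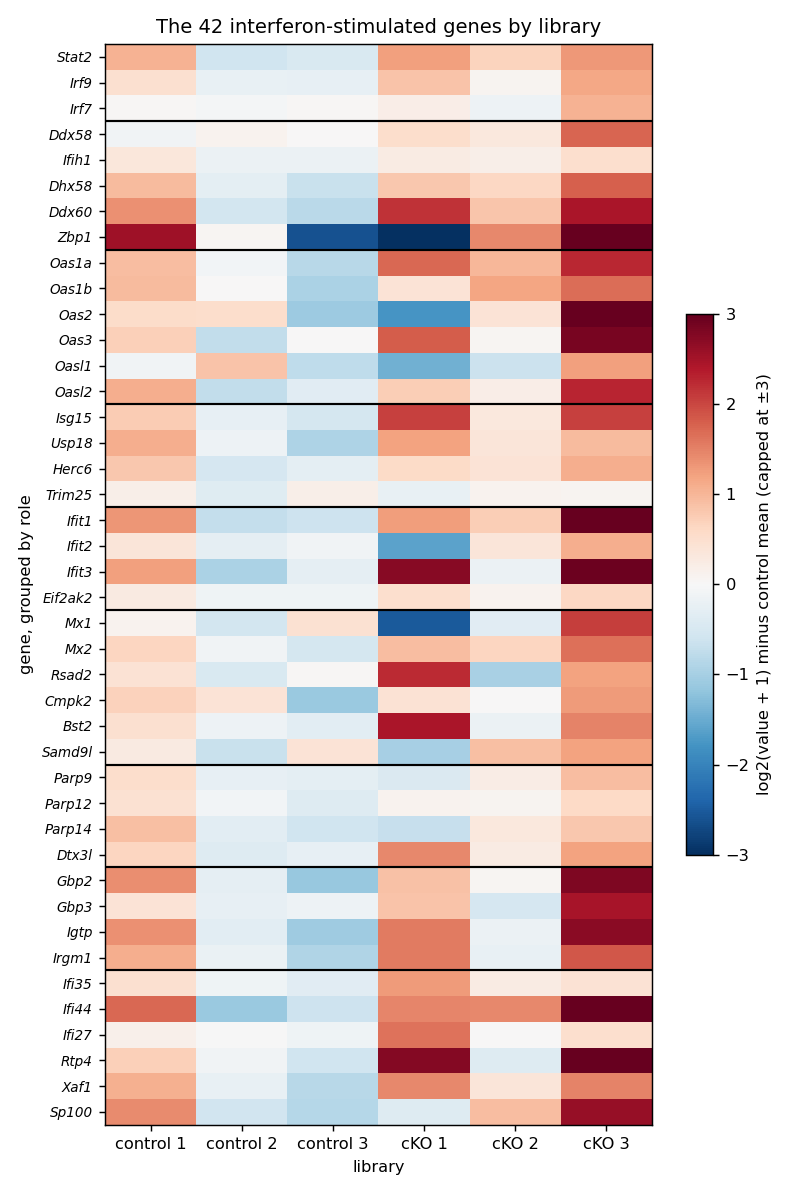
Each of the 42 interferon-stimulated genes (y axis, black lines divide the roles) in each library (x axis), coloured by log2(normalized count + 1) minus the gene's control mean and capped at 3 in either direction. Control replicate 1 and cKO replicates 1 and 3 are mostly red, control replicates 2 and 3 mostly blue, and blue cells in cKO replicate 1 include the genes listed at 0 there.

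Upstream of the 42 genes, ligand transcripts were near or at 0. Of 18 interferon genes in the table, 13 were at 0 in every library. Ifnk, the interferon made by keratinocytes, was at 4.52, 4.47 and 4.81 in controls and 0, 0.709 and 3.08 in cKO, and Ifng was at 1.02 or less except for 11.7, about 1 read, in cKO replicate 1. All Ifnk values in cKO lay below the controls, an order that 5.7% of all tested genes had. Its values of 0 in cKO replicate 1 and 0.709 in cKO replicate 2 are under 3 reads. In cKO replicate 1, 1 read was worth 12.3 normalized counts, so the 0 there cannot show a decrease. No ligand was abundant enough to be tested. Interferon receptors were lower in 5 of 6 (median log2 fold change -0.12), with Ifngr1, the ligand-binding chain for interferon gamma, at 2222, 2971 and 2779 in controls and 1641, 2216 and 1497 in cKO (-0.58, SE 0.21). Among 10 genes of JAK-STAT signalling and its brakes, which include Usp18 of the 42, 4 were higher and 6 lower. Jak2 was at 1104, 1524 and 1860.1 in controls and 556, 1088 and 860.5 in cKO (-0.86, SE 0.30). Socs3, a brake on cytokine receptors, was at 5034, 3029 and 2618 in controls and 4950.1, 4706 and 6780.0 in cKO (0.66, SE 0.29). Of 15 tested genes that sense nucleic acids upstream of interferon, 8 were higher and 7 lower (median 0.07), and the editing enzyme gene Adar, itself interferon-induced, gave 0.61 (SE 0.29). Beside these counts, 5769 of all 12239 tested genes were higher and 6470 lower. No gene of these lists passed an adjusted p of 0.05 in limma.

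Interferon targets outside the 42 genes leaned the same way less evenly. In a list of 53 in the table, 35 were tested, 25 higher and 10 lower (median log2 fold change 0.49, or 0.33 over all 53), with 3 higher at an unadjusted p under 0.05, beside 47.1% of all tested genes higher and 1.47% higher at that p. Lgals9, galectin 9, was at 328, 339.7 and 387 in controls and 581, 517 and 1188 in cKO (1.01, SE 0.32), and Parp10 gave 0.75 (SE 0.28). The most abundant, Ifitm3 and Irf1, were not higher (-0.13, SE 0.32, and -0.08, SE 0.37). Of 27 tested genes induced by interferon gamma, 23 were higher and 4 lower (median 0.97), with 0 at an unadjusted p under 0.05 in limma, and 7 of them averaged under 10 in controls. Psmb9, an immunoproteasome subunit, was at 751, 483 and 232 in controls and 1417, 554 and 986 in cKO (1.07, SE 0.48), and B2m, the light chain of MHC class I, was level (0.07, SE 0.23). The gamma list had the library order of the 42 genes at its extremes, with medians of 0.75, -0.05 and -0.78 in controls and 0.52, 0.01 and 2.49 in cKO. No gene of either list passed an adjusted p of 0.05 in limma.

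The next comparison asked whether interferon-stimulated genes were high in the same libraries as leukocyte genes, since sorted epidermal cells can include immune cells. In bulk RNA, more cells of a type and more RNA per cell cannot be told apart. Ptprc, the leukocyte surface antigen CD45, hardly varied among controls, with 30.0, 27.6 and 30.6 normalized counts, while cKO values were 0, 92.9 and 263, the 0 being under 3 reads. The same controls were up to 1.30 apart in the median log2 difference of the 37 interferon-stimulated genes. The pan-leukocyte list of 16 tested genes had medians of -0.18, 0.25 and -0.13 in the controls and 0.47, 0.85 and 2.67 in cKO. In cKO replicate 3 both this list and the interferon-stimulated genes were at their highest.

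**Figure D4:**
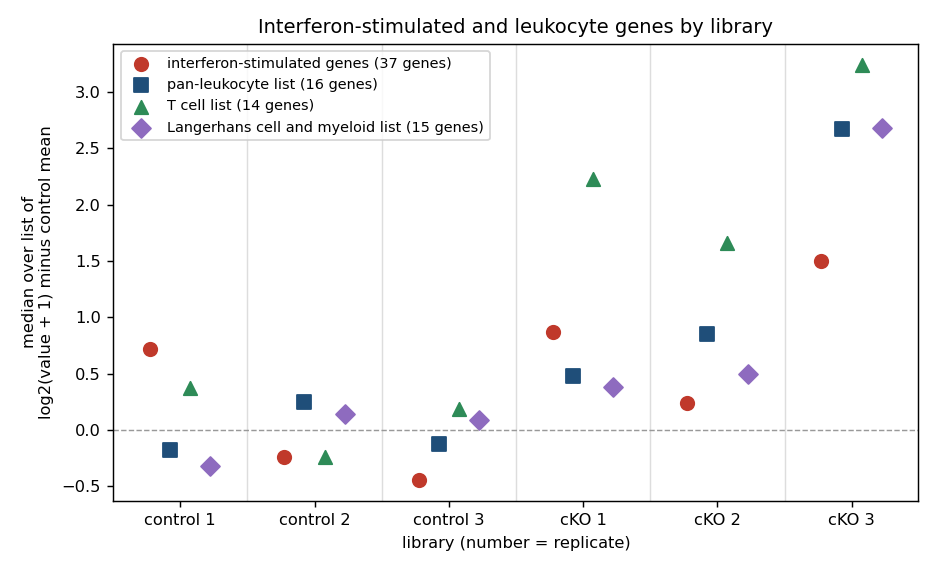
Median over each list of log2(normalized count + 1) minus the control mean (y axis) in each library (x axis) for 37 interferon-stimulated, 16 pan-leukocyte, 14 T cell and 15 Langerhans cell and myeloid genes. In control replicate 1 the interferon-stimulated genes are at 0.72 with the pan-leukocyte list at -0.18 and the T cell list at 0.37, its highest control, and in cKO replicate 2 they are at 0.24 with the pan-leukocyte list at 0.85.

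In control replicate 1 the pan-leukocyte and the Langerhans cell and myeloid lists went apart from the interferon-stimulated genes. The T cell list was only slightly higher there than in control replicate 3. The T cell medians were 0.37, -0.24 and 0.19 in the controls, highest in control replicate 1, and 2.23, 1.66 and 3.24 in cKO. While 36 of 37 interferon-stimulated genes exceeded control replicate 2 there, this held for 5 of 16 pan-leukocyte genes and 2 of 15 Langerhans cell and myeloid genes, but for 10 of 14 T cell genes. Against control replicate 3 the numbers were 35 of 37, 7 of 16, 3 of 15 and 9 of 14. Against control replicate 1, cKO replicate 2 was higher for 14 of 16 pan-leukocyte, 14 of 15 Langerhans cell and myeloid and 13 of 14 T cell genes, but for 5 of 37 interferon-stimulated genes. That contrast rests on the high interferon-stimulated levels of control replicate 1, since against control replicates 2 and 3 both kinds were mostly higher in cKO replicate 2. The numbers were 30 and 33 of 37 interferon-stimulated, 13 and 15 of 16 pan-leukocyte and 14 and 14 of 14 T cell genes. For the Langerhans cell and myeloid list they were lower, at 12 and 10 of 15. The filter favours cKO in these leukocyte counts. In controls, 7 of 16 pan-leukocyte, 3 of 15 Langerhans cell and myeloid and 8 of 14 T cell genes averaged under 10. In cKO replicate 1 the interferon-stimulated median of 0.87 stood beside 0.47 for the pan-leukocyte, 2.23 for the T cell and 0.38 for the Langerhans cell and myeloid list, and 7 of 20, 6 of 20 and 9 of 20 genes of those lists were listed at 0 there.

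Summed levels depended on the most abundant gene of each list. With every listed gene in the table, the pan-leukocyte sum was 1948, 1681 and 1475 normalized counts in controls and 2778, 1584 and 3504 in cKO, and the T cell sum was 3235.5, 1770.2 and 1611 in controls and 4791.5, 3021 and 4528 in cKO. In both sums control replicate 1 exceeded cKO replicate 2, as it did in the sum over the 42 interferon-stimulated genes (9078, 5021 and 4689.9 in controls and 11049, 6574 and 14252 in cKO). The Langerhans cell and myeloid sum was 3863, 6072 and 5898 in controls and 4835, 4721 and 15003 in cKO.

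The most abundant genes of these lists did not behave alike. Epcam, an adhesion molecule that keratinocytes can also express, was lower in every cKO library, at 2079.7, 3738 and 3672 in controls and 1048, 1812 and 1747 in cKO. Arhgdib, abundant in blood cells, was at 1361, 1047 and 946 in controls and 2006, 676 and 1288 in cKO. Thy1, a T cell surface protein, was at 3078, 1679 and 1465 in controls and 4134, 2618 and 3281 in cKO. In both, as in the sum over the interferon-stimulated genes, control replicate 1 was the highest control and cKO replicate 2 the lowest cKO library. Without the most abundant gene, the pan-leukocyte sum was 587, 634 and 529 in controls and 772, 908 and 2217 in cKO. The T cell sum was then 158, 91.2 and 145.5 in controls and 657, 403 and 1247 in cKO, and the Langerhans cell and myeloid sum 1783.5, 2334 and 2226 in controls and 3786, 2909 and 13257 in cKO. These reduced sums did not overlap between groups, whereas the full sums of the same lists did. The separation therefore appeared only with the most abundant gene left out. No such share was computed for sums. Of single tested genes, 5.16% had all cKO values above all control values. This held for 5 of 16 pan-leukocyte, 10 of 14 T cell and 7 of 15 Langerhans cell and myeloid genes. In the last list 1 gene lay wholly below. For interferon-stimulated genes it held for 3 of 37. The filter favours cKO in these leukocyte counts too. Without Ifi27, its own most abundant gene, the sum over the interferon-stimulated genes was 8014, 4067 and 3804 in controls and 8041, 5599 and 12877 in cKO, where control replicate 1 still exceeded cKO replicate 2. The part of leukocytes in the interferon-stimulated levels of the cKO libraries was not tested.

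The leukocyte lists held members at an unadjusted p under 0.05 in limma, 1 of 16 pan-leukocyte genes, 10 of 14 T cell genes and 7 of 15 Langerhans cell and myeloid genes (6 higher and 1 lower), beside 1.47% of all tested genes as higher and 3.46% as lower, and none passed adjustment. Their median log2 fold changes were 1.17, 2.23 and 1.16, and 7 of the 16, 8 of the 14 and 3 of the 15 averaged under 10 in controls, so that high cKO values carried them past the filter. Among the 9, 6 and 12 genes that averaged at least 10 in controls, a restriction chosen after seeing the data, the medians were 1.01, 2.28 and 1.24, and over all 20 genes of each list they were 1.07, 1.89 and 0.82. Laptm5, a lysosomal protein of blood cells, was at 28.1, 31.5 and 45.9 in controls and 115, 77.6 and 292 in cKO (1.97, SE 0.52). Cd3e, a T cell receptor subunit, was at 30.1, 12.3 and 24.8 in controls and 110.2, 59.8 and 128 in cKO. Cd74, the MHC class II chaperone of antigen-presenting cells, was at 698, 667 and 737 in controls and 1163, 1008 and 4490 in cKO. For plasmacytoid dendritic cells, a main source of type I interferon, the defining gene Siglech was at 0 in all 6 libraries, and the 5 tested genes of that list include Bst2 and Irf7 of the 42. The melanocyte list had 2 tested genes, 1 higher and 1 lower. B cell, mast cell, fibroblast and endothelial lists had 0 tested genes, with no value above 24.8 in any library. Among neutrophil genes, S100a8 and S100a9 were at 97.2 and 92.4 in cKO replicate 3 and at 12.5 or less elsewhere.

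Markers of the keratinocytes themselves did not separate the libraries in this order. The basal keratinocyte list of 10 genes had medians of -0.12, 0.02 and 0.10 in controls and -0.07, -0.23 and -0.32 in cKO. The suprabasal list of 9 genes was at -1.01, 0.14 and 0.90 in controls and -0.01, -0.15 and -0.42 in cKO, so that control replicate 1, highest of the controls in interferon-stimulated genes, was lowest in suprabasal genes. Control replicate 1 was also the one control with a high Xist level, while cKO replicate 3, the library highest in interferon-stimulated genes, had a low one (1.05). The part of sex and of suprabasal content in the difference among controls was not tested.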

How the data were processed

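Samples were grouped by their titles into 3 control and 3 Piezo1 cKO libraries. Per the labels' protocols, poly(A) RNA was made into directional libraries, and STAR, DESeq2 and GRCm38 are named, with no version, per the submitters' processing notes. How reads were counted, and whether by strand, is not given in the sources used here. The deposited values are a normalized count signal, never negative and not whole. Low values gather around a smallest step in each library, which was taken as the worth of 1 read. Up to 3.5 reads, 47.7% of values in cKO replicate 1 and 86.0% to 90.0% elsewhere were within 0.05 of a whole number, but between 20 and 100 reads only 9.32% to 13.7% were, so counts could not be recovered. Depth is therefore approximate, and the 3-read floor covers counting error only.

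The 12239 genes averaging 10 normalized counts or more over the libraries were tested as log2(value + 1) with limma 3.58.1 in R 4.3.3 (a two-sided test on all 6 libraries with trend and robust settings, statmod 1.5.0, and no covariate, with Benjamini-Hochberg adjustment over all genes). The pseudocount understates changes of low genes. Of the 37 tested genes, 2 averaged under 10 in controls (Ifi44 and Rsad2). The steps were tested on simulated data. Genes and lists were chosen with earlier results of these data known. The naming rule took, in each role, the 2 genes of smallest unadjusted p and the most abundant gene, with Ptprc, Piezo1 and 1 gene that is not reported here, and in each other list the 2 most abundant genes and the 2 of smallest p, of which not all are printed. Other interferon-stimulated genes given by their levels, such as Irf7, Zbp1, Parp9 and Rtp4, and Siglech were named after their values were seen. Gene positions and exon lengths are from GENCODE M21 (GRCm38), and promoter sequences from RefSeq (GRCm38.p6). Alternatives were the pseudocount, filters, scaling, limma-voom, ordinary empirical Bayes, a replicate block, leaving out each library and, chosen after seeing the data, a filter on the control mean.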

Additional observations from a re-analysis of the deposited data

How the results depend on the processing

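No interferon-stimulated gene passed an adjusted p of 0.05 under any alternative, and the number of genes past it in the whole table was 0 throughout, except for 1 (Amd1, lower in cKO) without cKO replicate 2, so leaving out a library gave 0 to 1. The median log2 fold change of the tested interferon-stimulated genes was 0.66 to 1.39 when a library was left out and 0.80 to 1.07 under the other alternatives. At an unadjusted p under 0.05 in limma, 7 genes were higher after quantile normalization, beside 621 of all genes in either direction. With limma-voom 11 were higher, beside 656, and the median of all genes moved to 0.10. A fit with replicate number as a block gave 8 beside 848 of all genes, where the main fit gave 5 beside 603. Taken gene by gene on the log2 scale, deviations of same-numbered libraries from their own group means correlated at 0.09, -0.15 and 0.07. The numbers were therefore not taken to pair samples, and such pairing changed no call. Trim25 turned positive after rescaling to totals (0.0366), quantile normalization (0.0550) and limma-voom (0.16) and ran from -0.18 to 0.10 when a library was left out, and Parp14 ran from -0.19 to 0.60. The cause was not tested. Of the 23 genes other than Trim25 chosen by the naming rule, 9 had a log2 fold change over 1.5 times smaller without cKO replicate 3 and 7 without control replicate 3, while 8 had one over 1.5 times larger without control replicate 1. A filter on the control mean, chosen after seeing the data, left 35 genes with the same median of 0.96. Of the checks of single genes, 372 kept direction and 9 reversed. None of these genes had passed an adjusted p of 0.05 in limma, so there was no call to lose. The low depth of cKO replicate 1 limits every gene under 36.8 normalized counts there.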
